A study of Homo sapiens with 17 samples.

Results

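K562 cells, an erythroleukemia line, that carry a short hairpin RNA against Drosha under doxycycline (Dox) control were kept for 31 d with Dox at 1 µg/mL or with water in parallel, and their small RNA was sequenced. The 6 libraries of that time, 3 Dox and 3 water, are those described here, of 17 in the series; all carry the inducible hairpin, so the water libraries are not a hairpin-free control. Each Dox library was deposited in 1 table with the water library of the same number, and these are called pairs 1, 2 and 3. The labels call them biological replicates grown in separate wells. The 6 libraries at 13 d, made with the same design, serve as the comparison.

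Drosha and its partner DGCR8 cut the hairpin out of a primary microRNA transcript in the nucleus, and Dicer then trims it to a duplex whose arms, 5p and 3p, can both become mature microRNAs. Some hairpins are known to bypass Drosha: mirtrons, which are spliced out as short introns, and hairpins that begin at a capped transcription start. A mature microRNA recognises its targets mainly through its seed, bases 2 to 8.

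The tables carry positions on hg19 but no names. A hairpin was named only where its own reads were stacked at the mature 5′ ends listed by RefSeq and kept the listed spacing, within 2 nt, to the stacks of other hairpins on the same chromosome. Of 1738 hairpins with mature entries, 319 were named in this way. In a check over 5 draws, hairpins were shifted along the chromosome, each by its own distance, and 0 of 1767 shifted hairpins received a name. Of these 1767, 318 were named at their own place. A name requires a spacing shared with other hairpins, which the shift breaks, so the rule largely set this outcome. The check therefore shows little about wrong names. Hairpins without a name here, among them MIR221, MIR222, MIR191 and MIR425, enter only as loci given by position. Classes such as snoRNA, tRNA or Y RNA were not told apart.

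The mature sequences that the comparisons below turn on are shown with the seed in capitals, as RefSeq lists them (GRCh38.p14). The first 9 come from 2 clusters, each made from 1 primary transcript, and fall into shared seeds: miR-17, miR-20a, miR-93 and miR-106b share one, and miR-92a and miR-25 another.
miR-17-5p: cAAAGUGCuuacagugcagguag
miR-20a-5p: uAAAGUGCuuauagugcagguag
miR-93-5p: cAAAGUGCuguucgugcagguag
miR-106b-5p: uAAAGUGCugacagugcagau
miR-18a-5p: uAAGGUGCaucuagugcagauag
miR-19a-3p: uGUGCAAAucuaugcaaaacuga
miR-19b-3p: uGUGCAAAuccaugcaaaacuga
miR-92a-3p: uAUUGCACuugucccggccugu
miR-25-3p: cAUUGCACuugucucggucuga
The next 3 come from hairpins among the 15 with the largest falls.
miR-589-5p: uGAGAACCacgucugcucugag
miR-218-5p: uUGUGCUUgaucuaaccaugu
miR-7-5p: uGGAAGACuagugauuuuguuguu
The last 3 come from mirtrons, whose reads rose.
miR-877-5p: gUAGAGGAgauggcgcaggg
miR-1226-3p: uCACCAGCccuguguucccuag
miR-3940-3p: cAGCCCGGaucccagcccacuu

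The hairpin RNA against Drosha was read at its target site in DROSHA on chromosome 5, where the most abundant alignment lay at 31511242 to 31511264 on the plus strand and at 31511241 to 31511262 on the minus strand (hg19), and the level there was far higher in each Dox library. On the plus strand the water libraries of pairs 1, 2 and 3 had 15.1, 6.43 and 5.21 reads per 1000000 library reads (RPM), and the Dox libraries 2020, 2771 and 4330. On the minus strand the water libraries had 55.0, 65.5 and 63.9, and the Dox libraries 3249, 4116 and 5315. The groups did not overlap on either strand. The same columns were higher at this site at 13 d, with log2 ratios of 10.11, 10.99 and 9.11 on the plus strand. The tables do not name their columns, so this site is what shows which side is Dox. Reads of the DROSHA mRNA were not measured, so the degree of knockdown is not known from these data.

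Library totals at 31 d were 52933029 to 64770002 reads. The tables list only alignments that have at least 1 read in the water library. They hold 71.6% to 91.5% of the total of a water library and 57.4% to 87.2% of that of a Dox library. That rule removes no water reads, so why the water libraries fall short of their totals is not known. How much of the Dox shortfall comes from alignments without water reads is not known either. Reads from alignments seen only with Dox are missing, which understates Dox levels, most at loci with few reads. The Dox library of pair 2 stood apart in length: 36.1% of its listed reads were shorter than 18 nt and 0.131% longer than 26 nt, against 10.9% to 24.4% and 0.735% to 14.3% in the other 5. Its part in the results was not tested; values are given per pair, and counts without it are given below.

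After 31 d of Dox a larger share of named hairpins than of all loci gave fewer reads, and 6 hairpins, 3 of them listed as made without Drosha, gave more. Of 278 named hairpins with a mean count of at least 50, 112 passed the threshold (edgeR, adjusted p under 0.05 over all loci), of which 6 were higher with Dox and the rest lower; the other 166 did not pass, and 41 more were under the count minimum. Over all 10291 loci tested, 15.5% were lower and 0.797% higher, against 38.1% and 2.16% of the named hairpins. The median log2 fold change was -1.63 for named hairpins and -0.60 for all loci. By pair, the hairpin medians were -1.41, -2.03 and -1.29, and those of all loci -0.72, -0.31 and -0.83. All hairpins called lower were below 0 in each of the 3 pairs, and all 6 called higher were above 0. Called or not, 63.3% of the named hairpins were lower in all 3 pairs, against 41.3% of all loci. In 57.6% of the named hairpins every Dox library lay below every water library, against 18.1% of all loci, and in 10.8% every Dox library lay above, against 2.54%.

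**Figure D1:**
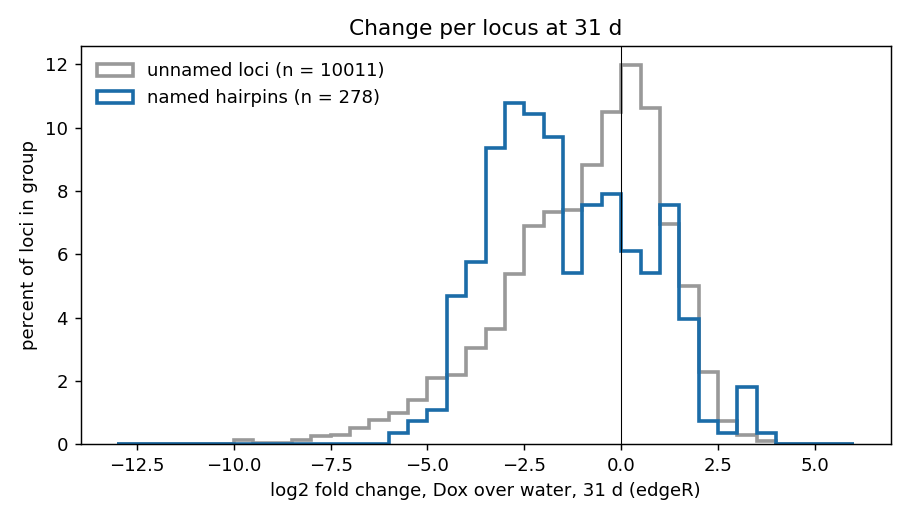
Log2 fold change of Dox over water at 31 d (x axis) for 278 named hairpins (blue) and 10011 unnamed loci (grey), as the percent of each group's loci per bin of the histogram (y axis). The hairpins lie further to the left, with a median of -1.63, and a small number of hairpins lies to the right of 2.5.

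These counts depend on the pairing, on pairs 2 and 3 and on the scaling. Without the pair as a block 0 hairpins passed in either direction. Without pair 3, 12 were lower and 0 higher, without pair 2, 41 and 1, and without pair 1, 90 and 8. With TMM scaling 52 were lower and 15 higher. TMM moved the median of all loci from -0.60 to 0.08, so a direction near 0 depends on the scaling.

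The largest fall was in MIR589 (chromosome 7, top alignment 5535503 to 5535525, minus strand). Its water libraries had 274, 308 and 304 RPM and its Dox libraries 11.3, 3.15 and 4.92. Every Dox library was far below every water library, with a log2 fold change of -5.73 ± 0.75 (SE, n = 3 pairs, edgeR adjusted p = 0.00222). Here and below, the SE of a fold change is derived from the edgeR test and is not the spread of the 3 pairs. MIR218-1 (chromosome 4, 20529922 to 20529942) followed, with 242, 317 and 254 RPM in water and 16.5, 3.13 and 5.17 with Dox, or -5.40 ± 0.79. MIR218-2 on chromosome 5 makes the same mature sequence, so that the reads of both copies cannot be told apart, and had -5.33. MIR7-1 (chromosome 9), a source of miR-7, fell by 4.42 on the log2 scale, from 918, 1339 and 588 RPM to 73.6, 24.1 and 39.1; its copy MIR7-3 fell by 4.43.

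The other hairpins among the 15 with the largest falls lay between -4.63 and -4.10. They were MIR941-1, MIR941-2 and MIR941-4, MIR3180-2 and MIR3180-3, MIR3934, MIR19A, MIR561, MIR500B and MIR584. The copies of MIR941 and of MIR3180 share mature sequences and are not separate measurements. Among these 15, MIR584 had the most even pairs, with log2 ratios of -4.22, -4.15 and -4.00. Among 75 tested hairpins whose mature sequence occurs in another hairpin, 35 were lower and 0 higher, and among the 203 without such a copy 71 were lower and 6 higher.

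Of the 6 hairpins of the miR-17-92 cluster, an oncogenic cluster on chromosome 13, 3 fell and 3 did not pass, where 38.1% of all named hairpins were lower. MIR19A, which makes miR-19a, had 1638, 911 and 790 RPM in water and 174, 11.4 and 42.4 with Dox, or -4.56 ± 0.72 (SE, n = 3 pairs, edgeR adjusted p = 0.00255). MIR18A had 609, 477 and 578 in water and 83.2, 20.6 and 38.7 with Dox, or -3.77 ± 0.63. MIR19B1 fell by 2.53 on the log2 scale, with an adjusted p of 0.0118. For these 3 hairpins no Dox library reached a water library, which also held for MIR92A1, a hairpin that did not pass.

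MIR17, MIR20A and MIR92A1 of the same transcript did not pass. MIR17 had 7342, 6380 and 7419 RPM in water and 6583, 2477 and 5319 with Dox, or -0.66 ± 0.44 (adjusted p = 0.319), with the groups overlapping. MIR20A had -0.65 ± 0.43 (adjusted p = 0.321) and MIR92A1 -1.07 ± 0.42 (adjusted p = 0.0900). With TMM scaling MIR17 and MIR20A were at 0.01 and 0.03. MIR19A minus MIR20A was -3.05, -4.92 and -3.85 in the 3 pairs, and MIR18A minus MIR17 was -2.71, -3.17 and -3.42. Each of these differences had 1 direction in 3 of 3 pairs, where the exact two-sided sign-flip test cannot go below p = 0.25, the value it gave. MIR92A1 and MIR19B1 share their 3p sequence with a second copy, so that their values may include reads of it.

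All 3 hairpins of miR-106b-25, a related cluster on chromosome 7, fell, where 38.1% of all named hairpins and 15.5% of all loci were lower. MIR25 had 3772, 4863 and 5244 RPM in water and 391, 298 and 468 with Dox, or -3.59 ± 0.50 (SE, n = 3 pairs, edgeR adjusted p = 0.00242). MIR106B had -2.32 ± 0.52 (adjusted p = 0.00725), and MIR93 -1.56 ± 0.51 (adjusted p = 0.0480). In each of the 3 hairpins the Dox libraries lay below the water libraries. The miR-25 and miR-92a sequences share a seed, and MIR25 minus MIR92A1 was -2.44, -2.55 and -2.58 in the 3 pairs (exact sign-flip p = 0.25, the smallest possible).

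**Figure D2:**
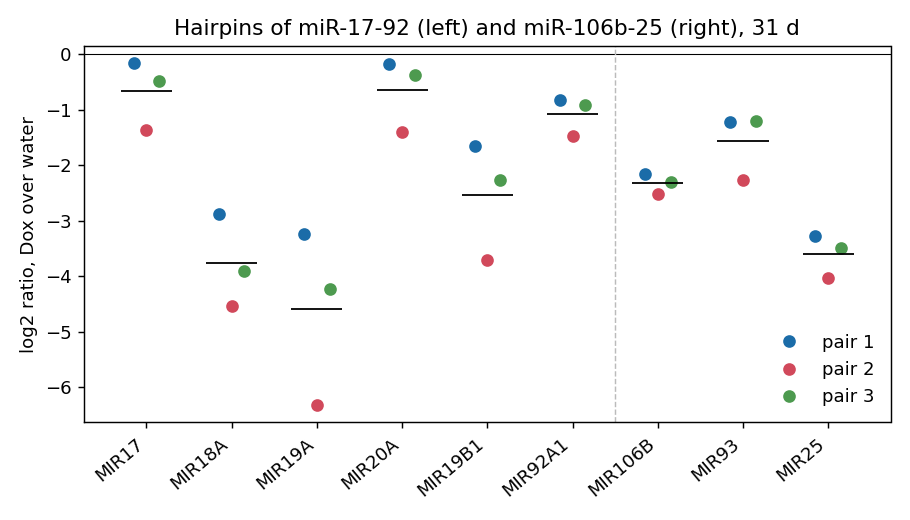
Log2 ratio of Dox over water in each pair at 31 d (points; black line, mean of 3 pairs) for the 6 hairpins of miR-17-92 and the 3 of miR-106b-25. MIR18A, MIR19A and MIR25 lie below -2.8 in every pair, while MIR17 and MIR20A lie between -1.40 and -0.16.

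Of 90 hairpins with a mean count of at least 50 on each arm, 68 had both arms below 0 in the mean of the pairs, 14 had both above 0 and 8 had opposite signs. The arms differed by a median of 0.48 on the log2 scale, and by more than 1 in 14 hairpins. In MIR18A the 5p arm had a mean log2 ratio of -3.81 and the 3p arm -3.59, and in MIR25 the 3p arm had -3.59 and the 5p arm -3.94. In MIR17 and MIR20A the less abundant 3p arms, at -1.35 and -1.07, were lower than the 5p arms, at -0.66 and -0.65. These are descriptions without a test, since arms of 1 hairpin share their source.

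Read lengths were compared within 3 arms of miR-17-92. For miR-17-5p of MIR17, forms of 21, 22, 23, 24 and 25 nt had log2 ratios of -0.20, -0.86, -0.30, 0.13 and 0.70 in pair 1 and of -0.86, -1.81, -0.68, -0.02 and 1.00 in pair 3. In pair 2, whose Dox library had few long reads of any kind, they were -0.38, -1.98, -1.08, -1.58 and -1.65. For miR-92a-3p, read at MIR92A1, forms of 22, 23 and 24 nt were at -0.67, -0.92 and -1.15 in pair 1, -0.74, -1.99 and -2.37 in pair 2 and -0.85, -0.99 and -0.95 in pair 3. The order of the lengths thus differed between arms and between pairs. For miR-19a-3p the forms of 22, 23 and 24 nt were at -3.49, -3.29 and -3.13 in pair 1, so that each of these lengths was lower. In pair 2 they were at -5.28, -6.11 and -7.66, and in pair 3 at -4.99, -4.23 and -4.07, in the order of pair 1. The part of the length difference between libraries in these values was not tested.

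In 2 other clusters 1 hairpin passed and a neighbour did not. In the miR-15/16 group, MIR15B fell by 2.62 on the log2 scale (edgeR adjusted p = 0.00600), from 438, 460 and 593 RPM to 84.7, 64.2 and 94.2, while MIR16-2 of the same transcript had -0.08 ± 0.52 (adjusted p = 0.935). The value of MIR16-2 includes miR-16-5p, which MIR16-1 also makes and whose reads cannot be assigned to either copy. The 3p arm of MIR16-2, which MIR16-1 does not make, was lower in each pair, at -0.69, -0.99 and -0.58. MIR15B had -2.37, -2.84 and -2.65 in the same pairs, below that arm in each. The size of the contrast with the whole of MIR16-2 rests on pooled copies. MIR16-1 and MIR15A did not pass. In the cluster of MIR183, MIR96 and MIR182, only MIR96 of 3 passed, at -2.31 (adjusted p = 0.0278); its Dox levels ranged from 135 to 1579 RPM, so its pairs were uneven, at -0.69, -4.13 and -2.16. None of the 6 hairpins of miR-23-27-24 passed. Of these, MIR24-1 and MIR24-2 share miR-24-3p and are not separate measurements. Beside these counts, 38.1% of all named hairpins were lower and 2.16% higher, and 15.5% and 0.797% of all loci. MIR1306, a hairpin that Drosha cuts from the DGCR8 mRNA, had 32.3, 44.5 and 43.5 RPM in water and 3.89, 2.66 and 3.52 with Dox, or -3.58 ± 0.74 (adjusted p = 0.00528).

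None of the let-7 hairpins, a family that restrains growth in differentiated cells, passed the threshold. All 12 sought were named and tested, with 0 called (edgeR), where 38.1% of all named hairpins were lower and 2.16% higher. Their median log2 fold change was 0.74, against -1.63 for all named hairpins. MIRLET7A1 had 225, 209 and 312 RPM in water and 453, 629 and 913 with Dox, so that the groups did not overlap, but at 1.38 ± 0.52 it missed the threshold (adjusted p = 0.0823). MIRLET7E had 0.76 and MIRLET7G -0.22. Copies such as MIRLET7A1, MIRLET7A2 and MIRLET7A3 share a mature sequence and count as 1 signal.

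The most abundant named hairpin, MIR21, a microRNA raised in many tumours, was likewise not called. It had 64444, 81970 and 83526 RPM in water and 43256, 52082 and 114678 with Dox, or -0.26 ± 0.37 (edgeR adjusted p = 0.671), with pair 3 above 0 and the others below. Of the 10 named hairpins with most water reads, MIR25 alone passed, where 38.1% of all named hairpins and 15.5% of all loci were lower. The 10 include MIR92A1 with MIR92A2 and MIR26A1 with MIR26A2, copies that share a mature sequence and are not separate measurements. MIR146B had 0.31, MIR10A -0.81, and the MIR26A copies -0.53 and -0.51. Together, named hairpins other than those listed as made without Drosha made up 19.3%, 22.3% and 23.4% of the water libraries and 12.3%, 11.1% and 23.3% of the Dox libraries. The log2 ratio of this share was -0.65, -1.01 and -0.01 (mean -0.56 ± 0.51 SD, n = 3 pairs, exact sign-flip p = 0.25, adjusted p = 0.50 over 6 classes), so that the sum barely moved in pair 3. Unnamed loci with 1 sharp 5′ end, as microRNAs have, held a larger share. They made up 26.5%, 42.7% and 36.7% of the water libraries and 23.3%, 31.2% and 45.5% of the Dox libraries.

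Of the 7 named hairpins listed as made without Drosha, 6 were tested, of which 3 rose and 0 fell, with a median log2 fold change of 2.11. Over all named hairpins 2.16% were higher and 38.1% lower, and over all loci 0.797% and 15.5%. MIR877 (chromosome 6, 30552109 to 30552132), a mirtron, had 6.38, 10.4 and 5.82 RPM in water and 50.6, 57.8 and 106.2 with Dox, or 3.21 ± 0.72 (SE, n = 3 pairs, edgeR adjusted p = 0.00739). MIR3940, another mirtron, had 2.57, 3.40 and 2.29 in water and 10.6, 46.7 and 77.6 with Dox, or 3.65 ± 0.85 (adjusted p = 0.00879). MIR1226, also a mirtron, had 2.67 ± 0.77 (adjusted p = 0.0281).

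MIR484, whose hairpin begins at a capped transcription start, had 130, 109 and 121 RPM in water and 221, 369 and 520 with Dox. The groups did not overlap, but the change of 1.54 ± 0.58 did not pass (edgeR adjusted p = 0.0803). MIR664A, which overlaps a snoRNA, had 1.52 (adjusted p = 0.132) and MIR1291, likewise snoRNA-derived, 0.89 (adjusted p = 0.461). MIR1237 was under the count minimum and had log2 ratios of 0.54, 0.92 and 1.71 in the pairs. Their summed share of the library was 0.0160%, 0.0147% and 0.0154% in water and 0.0330%, 0.0539% and 0.0833% with Dox, a mean log2 ratio of 1.79 ± 0.70 (SD, n = 3 pairs, exact sign-flip p = 0.25, adjusted p = 0.50 over 6 classes).

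**Figure D3:**
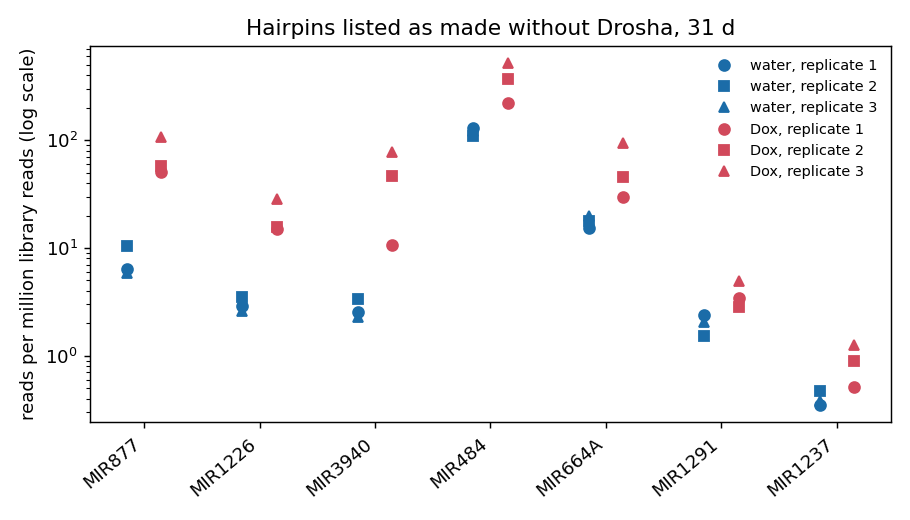
RPM (y axis, log scale) in the 3 water (blue) and 3 Dox (red) libraries of 31 d for the 7 named hairpins listed as made without Drosha. Every Dox point lies above every water point of the same hairpin.

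The other 3 hairpins that rose were MIR5094, MIR3620 and MIR4646, at 3.34, 3.12 and 3.07. They passed the count minimum only through their Dox reads. Summed over the 3 libraries of a group, they had 65, 35 and 53 reads in water and 730, 339 and 605 with Dox. All had under 0.4 RPM in the mean of the water libraries, and missing Dox-only alignments weigh most at such levels. They are not on the list of hairpins made without Drosha, which does not show that Drosha cuts them.

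Of 22 marker hairpins of other cell types sought, 8 were named and 3 of these were lower, namely MIR145 (-2.58), MIR200C (-2.09) and MIR141 (-2.61); none was higher. These counts are near the shares over all named hairpins, 38.1% lower and 2.16% higher. MIR142, a blood cell microRNA, had 3822, 2530 and 3801 RPM in water and a log2 fold change of -1.04 ± 0.45 that did not pass (edgeR adjusted p = 0.123). Of the erythroid and K562 markers, 4 of 7 were named and none passed; MIR144, which marks red cell precursors, had -0.89 ± 0.59 (edgeR adjusted p = 0.320). MIR451A, MIR486-1 and MIR210 have no name here.

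Outside the named hairpins, a smaller share was called lower than the 38.1% of the named hairpins, and the share called higher differed between the classes of loci. Unnamed loci make up most of all loci, so their shares must lie near those over all loci. Among 4061 unnamed loci with 1 sharp 5′ end, as microRNAs have, 17.6% were lower and 1.43% higher, and among 5950 other unnamed loci 13.0% and 0.269%, against 15.5% and 0.797% of all loci. The difference between the classes was not tested. The 5 largest falls had 0 listed reads in all 3 Dox libraries, and so passed the count minimum through water reads alone. The most even of them over the pairs, on chromosome X (110466964 to 110466982, plus strand), had 265, 560 and 579 reads in the water libraries. In listed reads it was at least 516-fold lower with Dox, where 0 is set to 3 reads over the 3 libraries. Dox reads of alignments without water reads are missing, so this is not a lower bound for all reads of the locus. The other 4 had most of their water reads in pair 2. They were on chromosome 13 from 50162456, chromosome 12 from 31008504, chromosome 1 from 145161619 and chromosome 7 from 126152994. Of the 5 largest rises, that with most reads was on chromosome 17 (75085510 to 75085530, plus strand), with 1.91, 1.02 and 1.66 RPM in water and 11.2, 38.8 and 49.8 with Dox, or 4.27 ± 0.89 (edgeR adjusted p = 0.00535).

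The effect at 31 d was compared with that at 13 d. Of 5204 loci with enough reads at both times, 0 differed between the times (edgeR interaction, adjusted p under 0.05), with 827 at an unadjusted p below 0.05. Of 239 named hairpins among them, 0 differed, and 11 (4.6%) had an unadjusted p below 0.05, against 15.9% of all loci. Of 95 hairpins lower at 31 d and tested at both times, 92 were also lower at 13 d, where 54.8% of the 239 were lower and 9.21% higher, against 31.0% and 17.4% of all loci. The 13 d calls come from a joint fit of the libraries of both times over these 5204 loci. The 31 d calls come from the 31 d libraries alone over 10291 loci, so the shares called at 13 d and 31 d are not comparable. MIR589 had -5.93 at 13 d and MIR25 -3.21, close to their 31 d values. MIR218-1 had -2.10 at 13 d, MIR19A -2.11 and MIR9-1 -2.32, where the 31 d values were -5.40, -4.56 and 0.03; the difference of MIR218-1 was -3.30 (edgeR unadjusted p = 0.00231, adjusted p = 0.276). A difference that misses the threshold does not show equal effects.

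**Figure D4:**
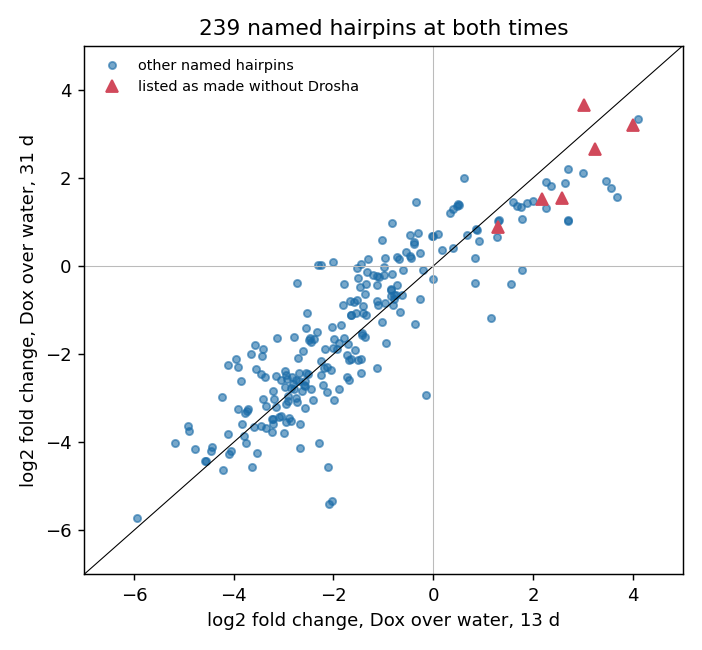
Log2 fold change of Dox over water at 13 d (x axis) and 31 d (y axis) for 239 named hairpins; the diagonal marks equal values, and red triangles are hairpins listed as made without Drosha. The lowest point at 13 d, at -5.93, is MIR589, and all 6 triangles lie above 0 at both times.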

How the data were processed

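The submitters' processing notes name Bowtie2 2.2.9 and hg19 (GRCh37); how reads with several positions were placed is not stated there. The deposited tables give, per alignment, a read count and an RPKM-like value per library, from which the library total was recovered. Starts are given here 1-based.

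Names rest on the read spacing of each hairpin. The reference in hand is of GRCh38, no coordinate of it is printed, and the match assumes equal spacing in both builds within a group of hairpins. The matching went through 8 earlier versions, changed after the names and some Dox and water values had been seen and compared with remembered hg19 positions; those that placed a hairpin by its neighbour's distance or aimed at remembered positions were dropped, and the last kept limits chosen in that course. The check with shifted hairpins (by 200 nt to 20 kb) therefore does not give the error rate of the final names. The members and lists were also chosen with earlier results of these data known.

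Counts of all lengths were summed per named hairpin (mature arms and 8 nt on each side). The remaining alignments of at least 18 nt with 10 reads were merged across gaps of up to 25 nt into unnamed loci. A locus was called sharp where 80% of its reads had 18 to 26 nt and 50% of these began within 1 nt of 1 position. Loci with a mean count of at least 50 were tested with edgeR 4.0.16 in R 4.3.3 (quasi-likelihood, robust), the pair as block, scaled by library totals, with Benjamini-Hochberg adjustment at 0.05. Log2 ratios of single pairs add 0.5 read. The SE of an edgeR fold change is its absolute log2 value over the square root of the F statistic of its test. The test was checked on simulated data and missed most changes of log2 size 2, the smallest put in, and some of size 4, so a hairpin that did not pass may still have changed. Limma 3.58.1 and DESeq2 1.42.0 were alternatives. Hairpins named in the text are the 15 largest falls and 10 largest rises past the threshold with 1 direction in all pairs (6 rose), the 10 with most water reads, and members of fixed lists, besides the 5 largest falls and rises outside hairpins. The 3 d tables and the untreated library were not analysed here. PCR reads carry no molecular identifiers, so counts are not independent molecules.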

Additional observations from a re-analysis of the deposited data

How the results depend on the processing

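The number of named hairpins called lower (38.1% of 278) and higher (6) moved with the processing as follows. Without the replicate block, that is without pairing, 0 were lower and 0 higher, and over all loci 0 and 2. The deviations of same-numbered libraries from their group means correlated at 0.837, 0.736 and 0.0456 in pairs 1, 2 and 3. An alignment without water reads in a pair counts as 0 on both sides of that pair, which can raise this correlation by itself. The values therefore cannot show how far the cultures were paired. The pairing was kept because the tables were deposited by pair. Leaving out 1 pair gave 12 to 90 lower and 0 to 8 higher hairpins, and 197 to 1989 lower and 2 to 312 higher loci. TMM factors gave 52 lower and 15 higher hairpins and 357 higher loci, DESeq2 with its size factors 32 higher hairpins and 892 higher loci, and alignments of 18 to 26 nt 13 higher hairpins and 148 higher loci. Over all loci, limma with a pseudocount of 10 reads gave 2417 lower and 345 higher, a mean count of at least 10 gave 7414 and 234, and no filter beyond 1 read 12051 and 153. Alignments listed in all 3 tables, an alternative added after seeing the data, gave 112 lower and 7 higher hairpins.

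Uncalled hairpins changed sign as follows. With TMM the log2 values were 0.13 for MIR26A2, 0.15 for MIR26A1, 0.0117 for MIR17, 0.0298 for MIR20A, 0.41 for MIR21, 0.47 for MIR27A, 0.45 for MIRLET7G, 0.58 for MIR16-2 and 0.39 for MIR183. With DESeq2 they were 0.23 for MIR21, 0.29 for MIR27A, 0.26 for MIRLET7G, 0.40 for MIR16-2 and 0.21 for MIR183. With scaling by listed reads of 18 to 26 nt, added after seeing the data, they were 0.00066 for MIR21, 0.0679 for MIR27A, 0.0386 for MIRLET7G and 0.17 for MIR16-2. Leaving out 1 pair gave -0.63 to 0.54 for MIR9-1, -0.61 to 0.52 for MIR9-3, -0.11 to 0.25 for MIRLET7I, -0.22 to 0.0655 for MIR16-2, -0.67 to 0.15 for MIR183 and -0.16 to 0.68 for MIR146B. No called hairpin named here changed sign. In the classes, the share outside loci was -3.89 at 18 to 26 nt and -3.63 as a share of such reads, against -0.62, and that of other unnamed loci 0.25 and 0.27 as a share of listed reads and of listed reads of 18 to 26 nt, against 0.05. Between 13 d and 31 d, 1 locus differed without the 31 d pair 2 and 0 under the other settings. The causes were not tested. Depth limits loci with few reads, where 0 reads allow up to 3.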
